A study of Mus musculus with 24 samples.

Results

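S100a4, S100a6 and Anxa1 were 3 of the 96 genes on a custom NanoString nCounter panel, a hybridisation assay that counts a coloured barcode for each target transcript without amplification. They were taken by name as the panel's S100 and annexin genes. Regulatory T cells (Tregs) of visceral adipose tissue (VAT) from 24 male mice were measured, each mouse giving 1 sample. All mice were on a C57/Bl6 background and carried Foxp3-YFP-Cre, which drives Cre recombinase and a yellow fluorescent protein from the Treg gene Foxp3. Knockouts (KO) also carried Insr-fl/fl, so that Cre removes the insulin receptor, and controls (Ctrl) carried Insr-wt/wt.

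The groups were 5 KO and 4 Ctrl mice given a high-fat, high-sucrose diet (HFD) for 13 weeks, 3 KO and 3 Ctrl mice given normal chow (NCD) for 13 weeks, and 6 KO and 3 Ctrl mice kept on NCD to 52 weeks of age. Both 13-week feeding schedules began at 3 weeks of age and ended at 16 weeks. Per the labels, this Cre line can recombine outside Tregs, and all mice were F4 animals bred from F3 littermates. Cells were sorted from the tissue of each animal as CD45+ CD4+ and positive for the Foxp3 reporter, then lysed without culture. The design asks how loss of the insulin receptor changes VAT Tregs in obesity and in old age, 2 settings with raised insulin.

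S100 proteins are small calcium-binding proteins of the EF-hand type, and annexins are proteins that bind membrane phospholipids when calcium is present. Several S100 proteins bind annexins directly. S100a4 binds non-muscle myosin and is known for its part in cell motility, and S100a6, also called calcyclin, has been linked to cell growth and to the actin skeleton. Annexin A1, the product of Anxa1, is induced by glucocorticoids and acts on formyl peptide receptors to limit inflammation. In T cells, S100a4 and S100a6 transcripts are typical of effector and tissue-resident cells rather than naive cells, and VAT Tregs are effector Tregs known for Pparg and for the interleukin-33 receptor ST2, encoded by Il1rl1.

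Signal is the authors' scaled count, at about 100000 per sample over the whole panel, so a level is close to a share of the panel. Recovered total counts per sample ran from 11446 to 224793, with a median of 49098. The panel signal summed to 100000 in 12 samples, all KO, and to more in the other 12, which held all 10 Ctrl mice, with 109979, 103368 and 126723 in the 3 Ctrl mice on NCD. How the higher Ctrl sums arose is not stated in the sources used here. With every sample rescaled to 1 total, each call of the 3 genes stayed on its side of the threshold. The targeted gene, InsR on the panel, had 1 to 6 counts in the 14 KO mice, against 10 to 480 counts in the 10 Ctrl mice. Its log2 fold change, KO over Ctrl, was -3.93 on HFD, -3.30 on NCD and -5.70 at 52 weeks. Log2 profiles within a group correlated at r from 0.81 to 0.98 across genes.

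Treg markers on the panel were Foxp3, CD25, Helios and Tcra, 4 of a list of 7, and none was at 0 in any sample. Their summed signal was 689 to 4812 in aged KO mice and 4942 to 7544 in aged Ctrl mice, below the 7861 to 15169 of all 4 groups at 16 weeks. In such bulk samples, fewer cells of a type and less RNA per cell cannot be told apart. All tests below used limma on log2(signal + 1) over the 24 samples, 2-sided, with Benjamini-Hochberg adjustment over the 96 genes and a threshold of 0.05. A fold change is on that scale and slightly understates changes of low genes.

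S100a4 and S100a6 lie in the S100 gene cluster of mouse chromosome 3, with only S100a5 between them, and Anxa1 lies on chromosome 19. The promoters of all 3 are shown because each transcript was called lower in KO mice on HFD, as was 17.7% of the panel. None of these calls held with log2 total count as a covariate, and shared control was not tested. Each sequence is the 250 bases before the RefSeq start (build GRCm38.p6), written 5′ to 3′ on the gene's own strand. Capitals mark matches to the motifs searched on both strands.
S100a4 promoter, chr3:90603520-90603769, plus strand: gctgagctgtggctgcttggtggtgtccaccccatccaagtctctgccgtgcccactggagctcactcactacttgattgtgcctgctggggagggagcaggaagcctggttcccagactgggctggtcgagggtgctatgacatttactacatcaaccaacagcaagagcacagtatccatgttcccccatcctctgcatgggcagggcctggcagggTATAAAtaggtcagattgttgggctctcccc
S100a6 promoter, chr3:90612644-90612893, plus strand: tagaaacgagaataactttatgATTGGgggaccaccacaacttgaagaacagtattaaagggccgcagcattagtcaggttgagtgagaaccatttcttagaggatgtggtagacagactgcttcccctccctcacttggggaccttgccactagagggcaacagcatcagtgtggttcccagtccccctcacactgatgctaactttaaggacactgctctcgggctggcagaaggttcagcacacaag
Anxa1 promoter, chr19:20390672-20390921, minus strand: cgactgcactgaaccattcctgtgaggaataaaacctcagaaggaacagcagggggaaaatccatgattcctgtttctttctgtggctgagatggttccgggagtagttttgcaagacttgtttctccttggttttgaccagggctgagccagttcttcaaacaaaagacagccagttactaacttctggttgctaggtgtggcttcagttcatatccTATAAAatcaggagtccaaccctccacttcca
The TATA-box motif, searched as TATAAA, began 31 bases before the start of S100a4 and 32 bases before that of Anxa1, and was in 12.3% of 32536 mouse promoters of the same length. S100a6 lacked it and had 1 CCAAT match, on the reverse strand 228 bases before its start, a motif in 33.8% of promoters. No match was found in any of the 3 windows for the E-box CACGTG (6.04% of promoters), the AP-1 letters TGANTCA (6.73%) or the GC box GGGCGG (32.97%). Their GC content was 57.2% for S100a4, 50.0% for S100a6 and 46.0% for Anxa1, against a median of 52.4%. No motif overlapped another.

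S100a4 was highest in young Ctrl mice on chow and lowest on HFD. On HFD its signal was 2009, 3129, 3264, 2617 and 1769.6 in the 5 KO mice, against 2481, 1147, 1842 and 2184 in the 4 Ctrl mice. On NCD it was 4185, 5824 and 7479 in KO mice, against 12095, 10592 and 8906 in Ctrl mice. All Ctrl mice on NCD were above all KO mice on NCD, and the HFD mice of either genotype lay below all NCD mice of that genotype. At 52 weeks the lowest, median and highest of the 6 KO mice were 2529, 3639 and 7242, against 7219, 6194 and 4319 in the 3 Ctrl mice. Those aged groups overlapped, with 1 KO mouse above every Ctrl mouse and 4 KO mice below every Ctrl mouse.

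Group means of S100a4 ran in the order Ctrl on NCD (10531 ± 1595), aged Ctrl (5911 ± 1470.4), KO on NCD (5829 ± 1647), aged KO (4283 ± 1691), KO on HFD (2558 ± 662) and Ctrl on HFD (1914 ± 574; SD, n = 3, 3, 3, 6, 5 and 4). The highest mean was 5.50 times the lowest. Only young Ctrl mice on NCD were clear of the group next to them, and each later neighbour in the order overlapped the one before. S100a4 had 524 or more counts in every mouse, so counting error was small beside the spread between mice.

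S100a6 was scarce in aged KO mice and varied widely among young KO mice. On HFD its signal was 68.6, 81.2, 322, 115 and 35.1 in KO mice, against 89.6, 211, 212 and 504 in Ctrl mice. On NCD it was 192, 690.2 and 1380.4 in KO mice, against 650.3, 702 and 715 in Ctrl mice. The NCD Ctrl mice were close together while NCD KO mice lay on both sides of them, and the HFD genotypes overlapped. At 52 weeks the lowest, median and highest of the KO mice were 11.1, 53.2 and 116, against 219, 211 and 283 in Ctrl mice. Every aged KO mouse was below every aged Ctrl mouse.

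The order of S100a6 means was KO on NCD (754 ± 597), Ctrl on NCD (689 ± 34.3), Ctrl on HFD (254 ± 176), aged Ctrl (238 ± 39.4), KO on HFD (124 ± 114) and aged KO (60.5 ± 43.9), a 12.5-fold span. Ctrl mice on NCD did not overlap the Ctrl mice on HFD that followed them, and the other neighbours overlapped. In aged KO mice the probe gave 15, 16, 21, 15, 25 and 49 counts, and these did not follow depth. The same 15 counts came from a sample of 135141 counts and from one of 49023. The panel's weak probe for Il5, the cytokine interleukin-5, gave 1 to 6 counts in KO mice and 5 to 13 in Ctrl mice. Whether a floor of unspecific counts adds to S100a6 in aged KO mice was not tested.

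Anxa1 ranked the groups by age and diet before genotype. On HFD its signal was 62.9, 49.1, 101, 38.0 and 13.3 in KO mice, against 147, 28.9, 84.5 and 45.9 in Ctrl mice. On NCD it was 147, 248 and 367 in KO mice, against 416, 791 and 262 in Ctrl mice. Genotypes overlapped in each diet, while diets did not overlap within a genotype. At 52 weeks the lowest, median and highest of the KO mice were 1158, 2327 and 3180.4, against 1402, 797 and 868 in Ctrl mice. All 9 aged mice were above all 15 young mice, and the aged genotypes overlapped. The margin was narrow, with 797 in the lowest aged mouse against 791 in the highest young mouse. The share of panel genes that separate all aged from all young mice was not counted.

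Anxa1 means ran from aged KO (2158 ± 824) through aged Ctrl (1022 ± 331), Ctrl on NCD (489.5 ± 273), KO on NCD (254 ± 109.9) and Ctrl on HFD (76.5 ± 52.3) to KO on HFD (52.8 ± 32.3), a 40.9-fold span. The gaps between aged Ctrl and young Ctrl on NCD, and between KO on NCD and Ctrl on HFD, held no overlapping mouse. Both margins were narrow, at 797 against 791 and at 147.3 against 146.7. In the KO mouse at 147.3, 1 count made 4.91 of signal, more than the second margin. HFD samples gave few Anxa1 counts, 22 to 61 in KO mice and 11 to 109 in Ctrl mice. Of the variance of log2 signal over the 24 mice, group means held 90.4% for Anxa1, 80.9% for S100a4 and 69.1% for S100a6, against a median of 61.3% over the 96 genes. Spread within groups was 0.44 log2 units for S100a4, 0.81 for Anxa1 and 1.08 for S100a6.

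**Figure D1:**
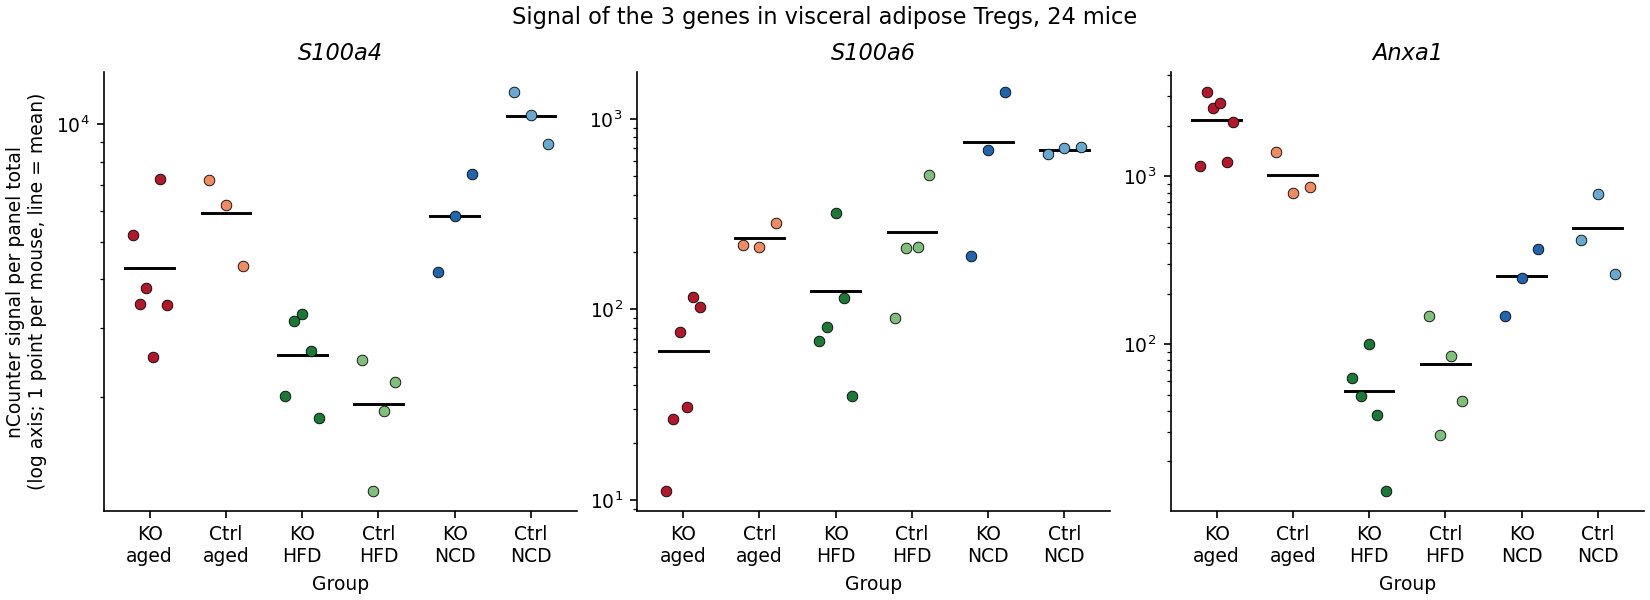
Signal of S100a4, S100a6 and Anxa1 in each of the 24 mice on log axes, 1 point per mouse, with a line at the mean of each of the 6 groups. S100a4 is highest in Ctrl mice on NCD and S100a6 is lowest in aged KO mice. Anxa1 is higher in all 9 aged mice (797 or more) than in all 15 young mice (791 or less), a narrow margin.

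On HFD, S100a4 and Anxa1 fell relative to chow in both genotypes, and S100a6 fell in KO mice. In Ctrl mice, S100a4 fell to 0.176 of its NCD level, a log2 fold change of -2.51 with an SE of 0.39 (adjusted p = 6.11e-05), and was the gene of rank 3 of 96 by p. Anxa1 fell by 2.77 (SE 0.61, adjusted p = 0.00153). The value of -1.69 for S100a6 (SE 0.78) did not pass (adjusted p = 0.137), although all 4 HFD mice were below all 3 NCD mice. Calls of a lower level made up 17.7% of the panel in this comparison, and groups were lower without overlap for 25% of genes, so a fall was common. The panel's median log2 fold change was -0.52, and median centring gave 6 genes called higher and 12 lower, against 3 and 17 as deposited.

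In KO mice on HFD, Anxa1 fell by 2.41 (SE 0.58, adjusted p = 0.00462), S100a6 by 2.58 (SE 0.75, adjusted p = 0.0179) and S100a4 by 1.19 (SE 0.38, adjusted p = 0.0329). S100a4 and Anxa1 did not overlap between the diets, whereas the highest HFD mouse for S100a6 (322) was above the lowest NCD mouse (192). Calls of a lower level again made up 17.7% of the panel, with 0% called higher, 20.8% of genes were lower without overlap, and the panel median was -0.46. Median centring gave 5 genes called higher and 12 lower, against 0 and 17 as deposited, and reference gene centring 8 lower. Total counts of KO mice did not overlap between the diets, at 34986 to 224793 on HFD and 11446 to 23790 on NCD, and with log2 total count as a covariate none of the 3 passed (adjusted p = 0.249 for Anxa1, 0.408 for S100a6 and 0.368 for S100a4). Depth and diet cannot be told apart in these KO mice. Without KO replicate 3 on NCD, the mouse with the highest value of each gene there, adjusted p was 0.0597 for Anxa1, 0.198 for S100a6 and 0.200 for S100a4.

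Of 29 effector and tissue Treg genes listed as companions of the S100 genes, 17 were on the panel. In Ctrl mice on HFD, 0 rose, 5 fell and 12 did not pass, with a list median of -1.23, where 3.12% of the whole panel was called higher and 17.7% lower, with a median of -0.52. The 5 were Klrg1, a receptor of terminally differentiated effector cells (-4.42), Il1rl1 (-2.73), Pparg, the lead transcription factor of VAT Tregs (-2.26), the suppressive cytokine gene IL-10 (-2.16) and the membrane protein gene Myadm (-1.53). In KO mice on HFD only Pparg passed (-1.36, adjusted p = 0.0477), and the list median was -0.51, near the panel median of -0.46. Whether S100a4 fell by different amounts in the genotypes was tested as an interaction, which gave 1.32 (SE 0.54, adjusted p = 0.321). The interaction with diet was 0.36 (SE 0.85) for Anxa1 and -0.89 (SE 1.08) for S100a6, with adjusted p = 0.926 and 0.809. It was called for 0% of the panel, with 12 genes at an unadjusted p under 0.05. Array weights in limma called 7 genes and voom on the recovered counts 2 genes.

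Between 16 and 52 weeks on chow, Anxa1 rose and S100a6 fell in KO mice. Anxa1 rose by 3.08 (SE 0.57, adjusted p = 0.000154), an 8.43-fold higher level, and the 95% interval was 1.90 to 4.25. S100a6 fell by 3.62 (SE 0.72, adjusted p = 0.000304), with an interval of -5.12 to -2.12. Neither gene overlapped between the ages. The value for S100a4 was -0.49 (SE 0.36, adjusted p = 0.275), its ages overlapped, and its sign turned to 0.27 when samples were centred on their median and to 0.09 when they were centred on 4 reference genes. In this comparison 12.5% of the panel was called higher and 41.7% lower, 9.38% and 24% of genes were higher and lower without overlap, and the panel median was -0.82. The balance depended on the scaling, with 16 genes called higher and 16 lower after median centring, and 15 and 18 after reference gene centring, against 12 and 40 as deposited. The calls of Anxa1 and S100a6 held in each of the 12 alternatives and the 24 omissions of a mouse.

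In Ctrl mice the same comparison gave 1.16 for Anxa1 (SE 0.65, adjusted p = 0.244), -1.54 for S100a6 (SE 0.84, adjusted p = 0.224) and -0.85 for S100a4 (SE 0.42, adjusted p = 0.193). None passed, although all 3 genes were without overlap between the ages, Anxa1 higher and both S100 genes lower. Such separation of 3 against 3 mice held for 18.8% of the panel upwards and 25% downwards, against 5.21% of genes called in either direction. S100a6 passed when only these 2 groups were fitted (adjusted p = 0.0490). Both genotypes' age comparisons use the NCD mice that also serve the diet comparisons. The interaction of genotype with age was 1.91 for Anxa1 (SE 0.87, adjusted p = 0.168), -2.08 for S100a6 (SE 1.11, adjusted p = 0.202) and 0.36 for S100a4 (SE 0.56, adjusted p = 0.775). It was called for 0% of the panel, with 26 genes at an unadjusted p under 0.05. Limma called 23 genes with array weights and 8 with a pseudocount of 10, and voom called 4.

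Within the effector list, 3 genes rose, 7 fell and 7 did not pass between young and aged KO mice, with a median of -0.45. These shares were close to those of the whole panel, with 12.5% called higher and 41.7% lower, and the panel median was lower, at -0.82. Those that rose were Myadm (2.93), the nuclear lamina gene Lmna (2.13) and the chemokine receptor gene Ccr2 (1.47). Among those that fell were Il1rl1 (-3.01), the costimulatory receptor gene ICOS (-2.93), the nuclear receptor gene RoRa (-2.01) and the growth factor gene Areg (-1.79). In Ctrl mice, Lmna rose (4.62) and ICOS fell (-1.60), and 15 of the 17 did not pass, where 3.12% of the panel was called higher and 2.08% lower.

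Knockout against control at equal diet and age gave 1 call among the 3 genes in the 3 settings. At 52 weeks S100a6 fell by 2.35 in KO mice (SE 0.72, 95% interval -3.86 to -0.85, adjusted p = 0.0247), to 0.196 of the Ctrl level, with no overlap. Anxa1 had 1.02 (SE 0.57, adjusted p = 0.191) and S100a4 -0.52 (SE 0.36, adjusted p = 0.301), and both overlapped. Calls of a lower level made up 20.8% of the panel at 52 weeks and calls of a higher level 3.12%, 17.7% of genes were lower without overlap, and the panel median was -0.60. That balance turned with median centring, which called 14 genes higher and 2 lower, against 3 and 20 as deposited, and 5 genes were called with only the 2 groups fitted and 9 to 13 without 1 of the Ctrl mice. The S100a6 call was lost with samples centred on their median (-1.48, adjusted p = 0.105), with only the 2 groups fitted (adjusted p = 0.0650), and without any 1 of the 3 Ctrl mice or KO replicate 2 (adjusted p = 0.0503 to 0.0798). With array weights Anxa1 passed at 1.29 (adjusted p = 0.0446) and S100a4 at -0.81 (adjusted p = 0.0394). Median centring gave 1.89 for Anxa1 (adjusted p = 0.0295) and turned S100a4 to 0.36.

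On NCD at 16 weeks the KO over Ctrl log2 fold change was -0.88 for S100a4 (SE 0.42, adjusted p = 0.348), -0.89 for Anxa1 (SE 0.65, adjusted p = 0.641) and -0.28 for S100a6 (SE 0.84, adjusted p = 0.976). S100a4 was lower without overlap, as were 13.5% of panel genes, and 2.08% were called lower. On HFD it was 0.43 for S100a4 (SE 0.35, adjusted p = 0.615), -1.17 for S100a6 (SE 0.69, adjusted p = 0.432) and -0.53 for Anxa1 (SE 0.54, adjusted p = 0.687), with overlap for each and 2.08% of the panel called. The 95% interval on HFD was -0.28 to 1.15 for S100a4, -2.59 to 0.26 for S100a6 and -1.64 to 0.58 for Anxa1. The genotype effect at 52 weeks minus that on HFD was 1.55 for Anxa1 (SE 0.78, adjusted p = 0.162), -0.95 for S100a4 (SE 0.50, adjusted p = 0.175) and -1.19 for S100a6 (SE 1.00, adjusted p = 0.415), where 12.5% of the panel was called, 1 gene higher and 11 lower as deposited but 7 higher and 1 lower with median centring. With array weights that difference passed for Anxa1 (2.02, adjusted p = 0.0307) and S100a4 (-1.23, adjusted p = 0.0311).

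**Figure D2:**
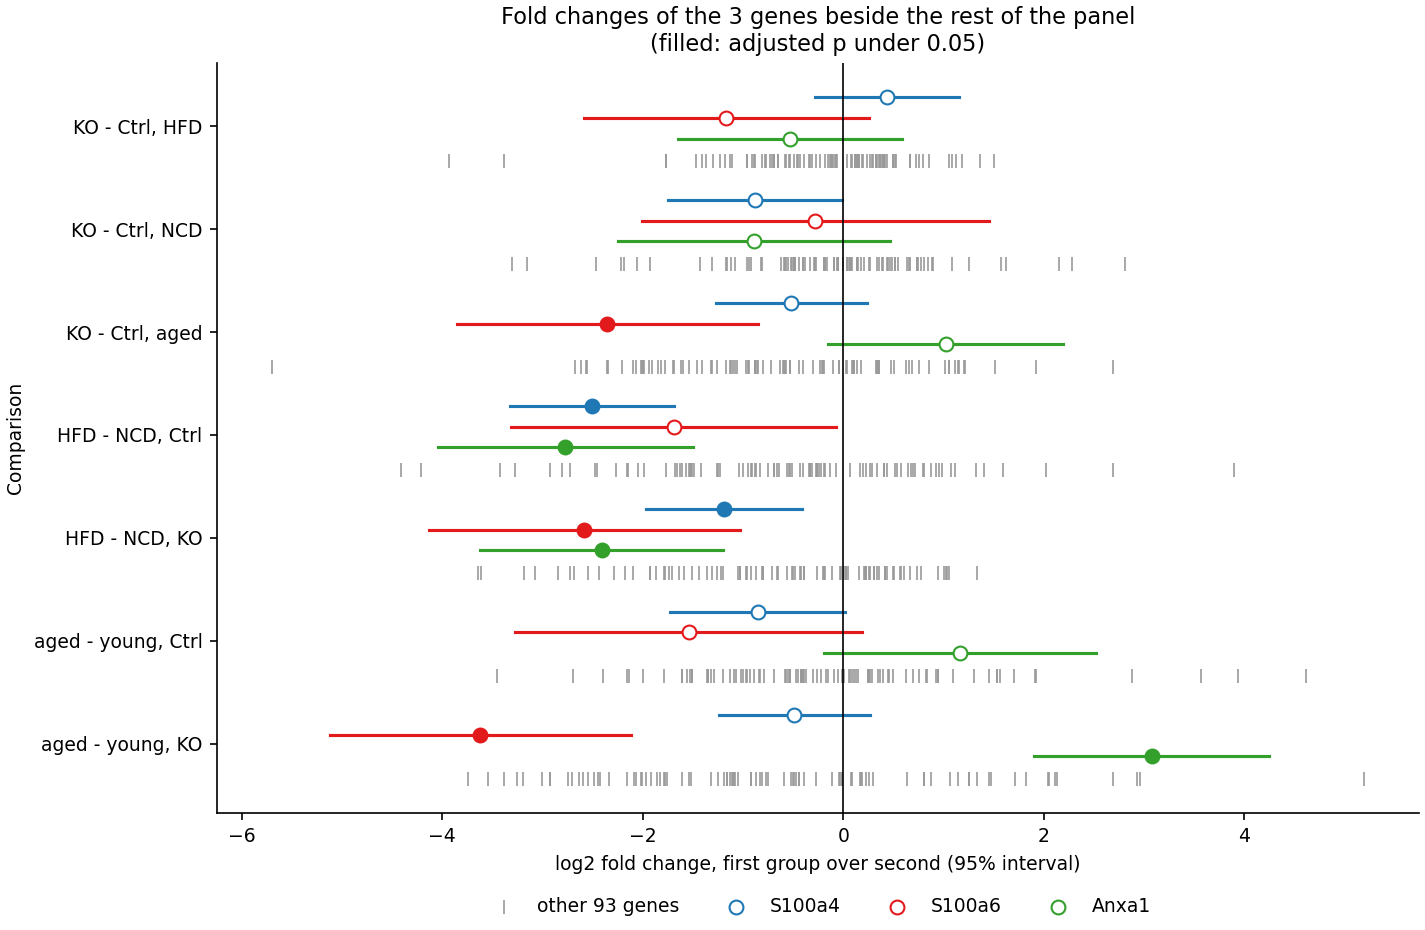
Log2 fold changes of S100a4, S100a6 and Anxa1 with 95% intervals in the 7 comparisons of 2 groups, above the fold changes of the other 93 panel genes as grey ticks. Filled points have an adjusted p under 0.05. Anxa1 is 3.08 and S100a6 -3.62 between aged and young KO mice, and on HFD in KO mice all 3 points are filled and below 0.

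Of the effector list, 1 gene rose, 5 fell and 11 did not pass in aged KO against aged Ctrl mice, with a median of -1.06, beside 3.12% called higher and 20.8% lower over the panel and a panel median of -0.60. The fallen genes were Il1rl1 (-2.62), Klrg1 (-2.56), IL-10 (-2.07), Areg (-1.84) and the transcription factor gene Irf4 (-1.46), and the tetraspanin gene Cd9 rose (1.92). On NCD at 16 weeks Lmna rose (2.28) and Ccr2 fell (-2.21), where 3.12% of the panel was called higher and 2.08% lower, and on HFD 0 of the 17 passed. Of 6 insulin and PI3K pathway genes, 3 were measured, InsR, IGF1R and Irs2. InsR fell in each genotype comparison, and the insulin receptor substrate gene Irs2 rose in KO mice on NCD (1.62, adjusted p = 0.0384). Of the 8 glucocorticoid response genes, Anxa1 alone was on the panel, and of the 13 S100 and annexin system genes only the 3 described here were measured, so no receptor or partner could be set beside them.

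Some genes listed as markers of cells other than Tregs moved with the aged and the diet comparisons. Whether other cells or the Tregs themselves carried these transcripts was not tested. Igfbp7, the 1 of 8 stromal, endothelial and adipose markers measured, had signal of 2001 to 8571 in aged KO mice, against 202 to 2143 in aged Ctrl mice and 75.8 to 279.6 in KO mice on NCD. It rose by 2.69 in aged KO over aged Ctrl mice (adjusted p = 0.0303) and by 5.19 in aged over young KO mice (adjusted p = 6.43e-05). In aged over young Ctrl mice Igfbp7 did not pass (0.45, adjusted p = 0.814). Lyz2, the 1 of 8 macrophage markers measured, spanned 198 to 6875 in aged KO mice and 132 to 4806 in aged Ctrl mice, against 105 to 227 in young KO mice and 48.2 to 422 in young Ctrl mice on NCD. It rose by 2.96 between young and aged KO mice (adjusted p = 0.0279). Between young and aged Ctrl mice Lyz2 had a similar 2.88, which did not pass (adjusted p = 0.163), and the aged genotypes gave -0.20 (adjusted p = 0.917). The 2 of 6 genes listed as neutrophil markers, Mmp9 and Cxcl2, summed to 1155 to 4435 in aged KO mice and 2770 to 3405 in aged Ctrl mice. These sums were mostly Cxcl2, with means of 2160 for Cxcl2 and 37.2 for Mmp9 in aged KO mice, and 2792 and 206 in aged Ctrl mice. Mmp9 fell by 2.55 in aged KO against aged Ctrl mice (adjusted p = 0.0303) without overlap, where Cxcl2 had -0.53 (adjusted p = 0.363). In aged over young Ctrl mice Mmp9 rose by 3.93 (adjusted p = 0.0116), where 3.12% of the panel was called higher. Young Ctrl mice on NCD gave only 3 to 8 Mmp9 counts. Cxcl2 rose by 1.25 in aged over young KO mice (adjusted p = 0.0182), where Mmp9 had 0.63 (adjusted p = 0.562).

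The 3 NK and cytotoxic markers of 6 summed to 130 to 901 in aged KO mice, against 491 to 1040.3 in aged Ctrl mice. GzmB fell by 2.21 in aged KO against aged Ctrl mice (adjusted p = 0.0303). Between young and aged KO mice GzmA fell by 2.74, GzmB by 2.07 and Perforin by 1.61 (adjusted p = 0.00593, 0.0221 and 0.0238). In that comparison 41.7% of the panel was called lower. No marker was at 0 in any sample, and none of the 3 B cell markers was on the panel. Treg markers fell in aged KO against aged Ctrl mice, with -1.69 for Foxp3 (adjusted p = 0.0214), -1.82 for Helios (adjusted p = 0.00240) and -2.35 for CD25 (adjusted p = 0.00421). Between young and aged KO mice, where Anxa1 rose and S100a6 fell, Foxp3 fell by 2.59 (adjusted p = 0.000240), CD25 fell by 2.48 (adjusted p = 0.000784) and Helios by 3.38 (adjusted p = 1.47e-06). The part of other cell types in the aged results of Anxa1 and S100a6 was not tested. On HFD the Treg sums, 9937 to 12294 in KO mice and 7861 to 10589 in Ctrl mice, stood beside 8195 to 10840 in KO mice and 10610 to 15169 in Ctrl mice on NCD.

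The Treg markers did not move as a set with diet. In Ctrl mice on HFD, CD25 fell by 2.46 without overlap (adjusted p = 0.00329), beside 0.26 for Foxp3 and 0.51 for Helios, which did not pass. Cxcl2 fell by 3.28 in Ctrl mice on HFD (adjusted p = 2.21e-05), the lowest p of the panel, and by 1.93 in KO mice (adjusted p = 0.00337). GzmA fell by 2.81 in Ctrl mice (adjusted p = 0.0119) and by 2.44 in KO mice (adjusted p = 0.0336), and Perforin fell by 1.71 in KO mice (adjusted p = 0.0477). The neutrophil marker sums were 152 to 365 in KO and 117 to 285 in Ctrl mice on HFD, against 579.6 to 1258 in KO and 1527 to 2208 in Ctrl mice on NCD, without overlap between diets. Cxcl2 made up most of these sums. Mmp9 did not pass on HFD, at -0.33 in Ctrl mice (adjusted p = 0.793) and -1.20 in KO mice (adjusted p = 0.365). The NK and cytotoxic sums were 167 to 332 in KO and 176 to 1076 in Ctrl mice on HFD, against 581 to 1485 in KO and 758 to 1966 in Ctrl mice on NCD. Lyz2 and Igfbp7 did not pass on HFD in either genotype. The part of other cells in the falls of S100a4, S100a6 and Anxa1 on HFD was not tested.

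Over the 24 mice, S100a4 correlated with Anxa1 at r = 0.55 (rho = 0.54, permutation p = 0.00646, adjusted p = 0.0194 over 3 pairs) and with S100a6 at r = 0.45 (rho = 0.51, permutation p = 0.0264, adjusted p = 0.0397). S100a6 and Anxa1 had r = -0.15 (rho = -0.16, permutation p = 0.470). Without the 2 mice farthest from the median of the x gene, r was 0.51, 0.48 and 0.05. These values carry the differences between groups. With group means subtracted, r was 0.29 for S100a4 with Anxa1, 0.34 for S100a4 with S100a6 and 0.25 for S100a6 with Anxa1, each with an adjusted permutation p of 0.297, so no relation within groups passed.

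The ratio of Anxa1 to S100a6 within a mouse was highest in aged KO mice, and on chow it was higher in aged than in young mice of both genotypes. Probes differ in efficiency, so only differences of a ratio between groups are read. Its log2 mean was 5.44 ± 1.404 (SD, n = 6) in aged KO mice and 2.06 ± 0.55 (SD, n = 3) in aged Ctrl mice, a difference of 3.38 with an exact permutation p of 0.0238, the smallest the design can give. The mean was -1.25 ± 0.79 (SD, n = 3) in KO mice on NCD at 16 weeks, a difference of 6.69 with the same exact p. Aged KO mice lay between 3.38 and 6.86, against 1.61 to 2.67 in aged Ctrl mice. Ctrl mice on NCD at 16 weeks had a mean of -0.64 ± 0.81 (SD, n = 3) and lay between -1.45 and 0.17. Aged Ctrl mice differed from them by 2.70 (exact permutation p = 0.1). S100a4 over S100a6 differed by 1.84 between aged KO and aged Ctrl mice, again with an exact permutation p of 0.0238. These ratios were chosen after their values were seen. Of 21 such 2-sided tests 6 had p under 0.05 and 0 passed after adjustment (lowest adjusted p = 0.1). Tests of 3 against 3 mice, and of the diets in Ctrl mice, could not reach 0.05, as their smallest possible p was 0.1 and 0.0571. Even with each of the 21 tests at its smallest possible p, no adjusted p could fall under 0.05. That 0 passed after adjustment was therefore fixed by the group sizes and decides nothing.

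**Figure D3:**
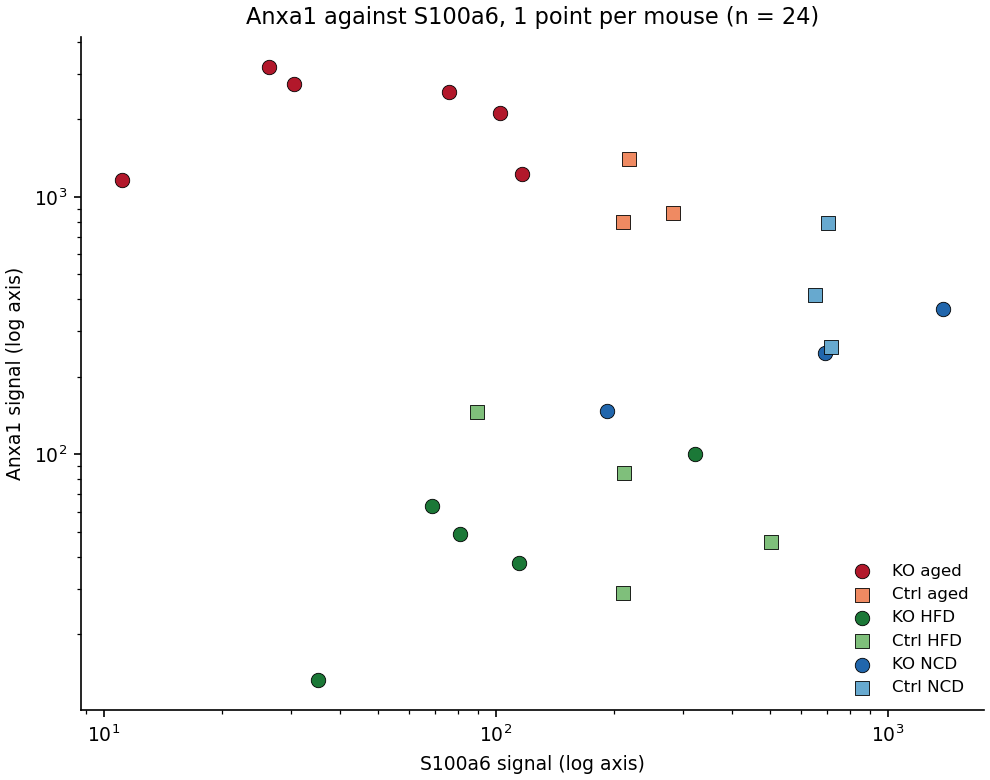
Anxa1 signal against S100a6 signal, 1 point per mouse, both axes on a log scale, KO mice as circles and Ctrl mice as squares. The 6 aged KO mice lie at high Anxa1 (1158 to 3180.4) and low S100a6 (11.1 to 116), apart from the other 18 mice.

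The 5 panel genes whose log2 signal followed each member most closely over the 24 samples were taken by Pearson r, as a description. For S100a4 they were Pparg (r = 0.86), the chemokine gene Cxcl3 (0.84), the immediate early gene Nr4a1 (0.83), Cabyr (0.80) and the protease gene Furin (0.79). Pparg signal was 60.2 ± 36.6 in KO and 46.9 ± 29.9 in Ctrl mice on HFD, against 145 ± 49.1 in KO and 202 ± 59.1 in Ctrl mice on NCD (SD, n = 5, 4, 3 and 3). As for S100a4, HFD mice were low. With group means subtracted, Furin had the highest r with S100a4, at 0.69. The least like gene was the lymph node homing receptor gene Ccr7 (r = -0.72), which was 14.9-fold higher in Ctrl mice on HFD than on NCD (adjusted p = 9.60e-05).

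Anxa1 was followed by the stress-response gene Atf3 (r = 0.95), Myadm (0.92), Cxcl2 (0.87), the AP-1 family gene Fosb (0.84) and Tmem176a (0.79). Atf3 signal was 4935 ± 676 in aged KO and 4429 ± 1133 in aged Ctrl mice, against 1275 ± 602 in KO and 1834 ± 683 in Ctrl mice on NCD (SD, n = 6, 3, 3 and 3). Like Anxa1, it was higher in every aged than in every young mouse. ICOS was least like Anxa1, at r = -0.92, and averaged 206 ± 65.4 in aged KO mice, against 1655 ± 867 in KO mice on NCD (SD, n = 6 and 3). With group means subtracted, r with Anxa1 was 0.66 for Atf3, 0.34 for Myadm and 0.18 for Cxcl2.

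S100a6 was followed by the NF-kB regulator gene Nfkbid (r = 0.79), Zbtb10 (0.77), Il1rl1 (0.75), CD25, the interleukin-2 receptor alpha chain (0.73), and the granzyme gene GzmA (0.73). Nfkbid signal was 278 ± 179 in aged KO mice and 981 ± 91.4 in aged Ctrl mice (SD, n = 6 and 3), and it fell by 2.34 (adjusted p = 0.0214). The kinase-like gene Trib1 was least like S100a6 (r = -0.76) and rose by 1.16 in aged KO over aged Ctrl mice (adjusted p = 0.0257). With group means subtracted, Nfkbid kept an r of 0.66 with S100a6, while Il1rl1 had 0.20 and CD25 had 0.24. The median r of the other panel genes was 0.26 with S100a4, 0.31 with S100a6 and 0.15 with Anxa1. These points share groups, panel scaling and depth.

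**Figure D4:**
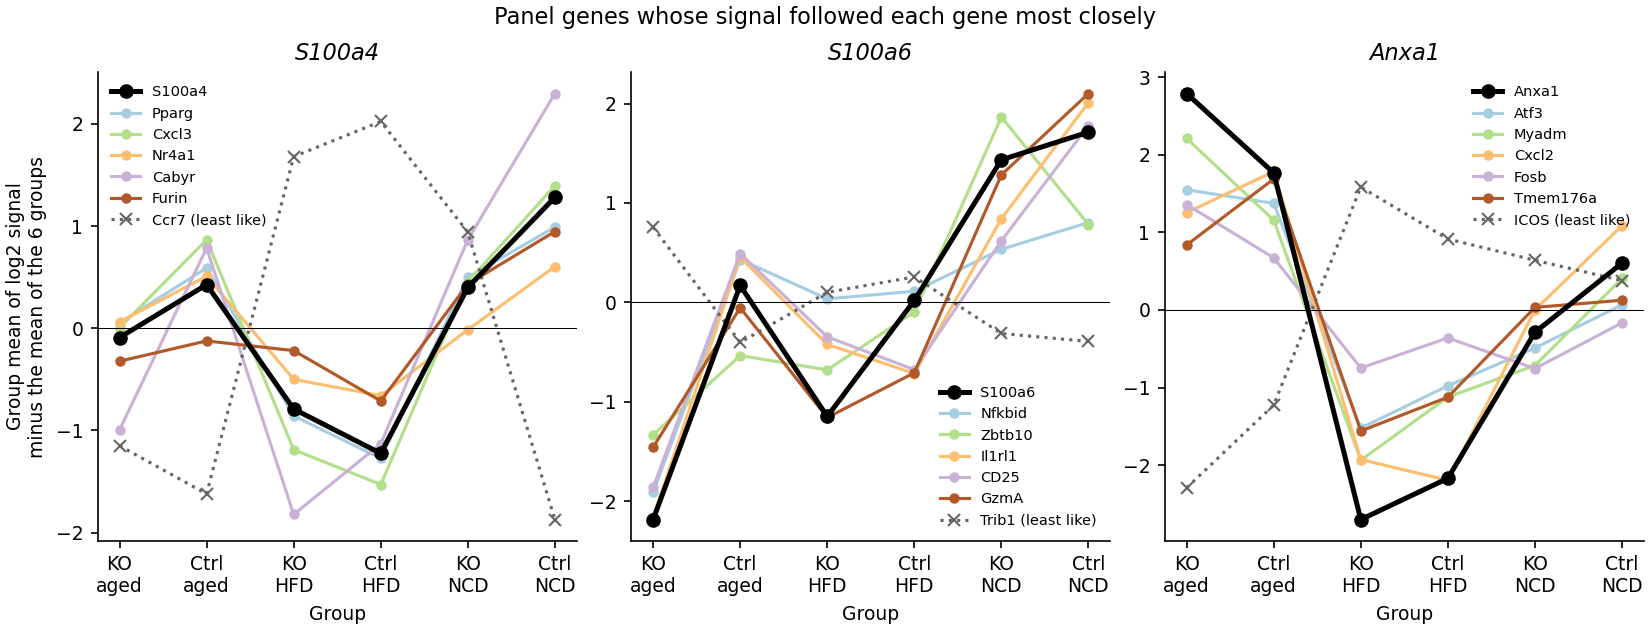
Group means of log2 signal, each gene centred on the mean of its 6 groups, for S100a4, S100a6 and Anxa1 (black) with the 5 most like genes (coloured) and the least like gene (dotted). Lines join groups for the eye only. Atf3 and Myadm follow Anxa1 with their peak in aged mice, and Ccr7 and ICOS run against S100a4 and Anxa1.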

How the data were processed

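Per the values themselves, each deposited signal is a count that the authors rescaled so that the 96 genes of a sample total about 100000. Software, background correction and control scaling are not stated in the files or labels. Nearly all values (2302 of 2304) were whole multiples of a sample-specific step, to within 0.02 of a count, and the counts quoted were read from that step. A mean for each of 6 groups was fitted to log2(signal + 1) of all 24 samples with limma 3.58.1 (R 4.3.3), with no filter, covariate or omitted sample, for 10 contrasts. The fit was tested on simulated data. Exact permutation tests used scipy 1.17.1, and correlations used 100000 resamples. Members, lists and tests were chosen with earlier results of these data known. Besides the 3 members, named genes were the 5 most and the 1 least correlated with each, list members that passed, and markers, and those named in a comparison where no member passed were chosen after their values were seen. A check of replicate numbers found no sign that they pair samples, though correlations between so few mice cannot exclude it. The alternatives and their effect are given in the closing section. Of the panel names, 88 matched a RefSeq symbol, 4 a synonym, 1 several and 3 none. Precision is limited by 3 to 6 mice per group, and in low genes by counting error.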

Additional observations from a re-analysis of the deposited data

Results flagged for a closer look

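S100a6 in KO mice on HFD held 1 sample far from the others. Replicate 3 had a signal of 322, against 115 in the next highest of the 5 mice, a gap of 0.722 of the whole range of the signal. On the log2 scale used for the tests the gap was 0.468 of the range, under the limit of 0.710 for 5 mice. S100a4 (3264) and Anxa1 (101) were also highest in that mouse within its group. It was the 1 such sample in 9 group and gene combinations examined. Chance alone marks about 1 in 20 of such combinations if values are normally distributed, which was not tested for the signal. At that rate 1 among 9 is not unusual.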

How the results depend on the processing

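Each of 30 results was recomputed under 12 alternatives and 24 omissions of 1 mouse. Direction and side of the threshold stayed as reported in 340 of 360 alternatives and 705 of 720 omissions. S100a4 and Anxa1 on HFD in Ctrl mice, and S100a6 and Anxa1 with age in KO mice, passed in all of these. With median centring, S100a4 turned to 0.36 for KO over Ctrl at 52 weeks and to 0.27 with age in KO mice, S100a4 on HFD in KO mice was -0.76 and S100a6 at 52 weeks was -1.48, neither passing, and Anxa1 at 52 weeks passed at 1.89. That centring moved the panel median by up to 0.87. With reference gene centring, S100a4 with age in KO mice was 0.093, and on HFD in KO mice S100a4 (-0.83) and S100a6 (-2.22) no longer passed. The 4 reference genes, Gusb, Hprt, Rpl19 and Sdha, were not all level in these comparisons. Gusb was called lower on HFD in KO mice (-1.31, adjusted p = 0.0403). Hprt was called lower with age in KO mice (-1.09, adjusted p = 0.0104). In each case the other 3 did not pass. With log2 total count as a covariate, S100a4 (-0.92), S100a6 (-1.43) and Anxa1 (-1.61) no longer passed on HFD in KO mice. With only the groups of a contrast, S100a6 at 52 weeks (-2.35) no longer passed and S100a6 with age in Ctrl mice (-1.54) did. Array weights made calls of S100a4 (-0.81) and Anxa1 (1.29) at 52 weeks, of Anxa1 for genotype by age (2.42), and of S100a4 (-1.23) and Anxa1 (2.02) for the genotype effect at 52 weeks against HFD. voom on recovered counts, added after the data were seen, turned Anxa1 for genotype by diet to -0.065. Over the whole panel, calls on HFD in KO mice numbered 17 as reported, 8 with reference gene centring, 1 with log2 total count as a covariate, 7 without KO replicate 3 on NCD and 28 with array weights, calls at 52 weeks numbered 23 as reported and 46 with array weights, and calls with age in Ctrl mice 5 as reported, 19 with array weights and 10 with voom. The causes of these changes were not tested.

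Omissions gave -1.41 to -0.99 for S100a4, -3.36 to -1.94 for S100a6 and -2.755 to -2.0003 for Anxa1 on HFD in KO mice, and -2.62 to -1.97 for S100a6 at 52 weeks, each losing its call in some. S100a6 for KO over Ctrl on NCD spanned -0.92 to 0.50, and Anxa1 for genotype by diet -0.061 to 0.77. Samples with the same replicate number did not deviate together, with r over 0.1 in 10 of 49 pairs and a median r of -0.04, and 2 of 23 samples correlated best with their own number. The replicate block gave -1.19 for S100a4 on HFD in KO mice, which no longer passed (adjusted p = 0.0754), and changed no other call of the 3 genes. The planned count model on recovered counts was not run. Counts were few for S100a6 in aged KO mice (15 to 49) and for Anxa1 on HFD (11 to 109), which limits both.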
